A study of Mus musculus with 12 samples.

Results

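The response that was common to deletion of Lkb1 and of RbpJk in the newborn mouse liver was measured by setting all 6 Cre-positive livers against all 6 Cre-negative livers, with the experimental arm as a blocking factor. These 12 arrays were the whole series. The Cre-positive arrays came from 3 livers with a liver-specific deletion of Lkb1 (LKB1 KO) and 3 livers with a liver-specific deletion of RbpJk, which inactivates the Notch pathway (RbpJk KO). The Cre-negative arrays came from 3 normal livers of each arm (LKB1 WT and RbpJk WT). Mice were killed at an age of 5 days, each liver was hybridised to its own whole-transcript array, and the labels call every mouse male. The sources used here do not name the promoter that drives Cre in these newborn mice or the alleles that the Cre-negative livers carried.

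Lkb1 (official symbol Stk11) is a kinase that activates AMPK and the related kinases, through which it restrains anabolic metabolism and maintains epithelial polarity. RbpJk (official symbol Rbpj) is the DNA-binding protein on which the cleaved Notch receptors assemble at their target genes, and in the liver the Notch pathway is known for its part in bile duct formation. In the days after birth, hepatocytes lose fetal functions and gain those of the adult liver, among them the metabolism of xenobiotics, while blood cells are still being formed around them.

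Both arms had the presence of Cre in common, and no Cre-positive liver with an intact target gene was among the 12 arrays. An effect of Cre itself, an effect of deletion that both genes share, and any other difference between Cre-positive and Cre-negative mice cannot be told apart in this design. In whole liver, fewer cells of a type and less RNA per cell cannot be told apart either. Precision is limited by having 3 arrays in each group, and p-values refer only to the spread between these samples.

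The targeted genes were examined first, as a check on the labels. Stk11 lay at 7.03, 6.85 and 6.38 on the LKB1 KO arrays, against 7.58, 7.53 and 7.53 on the LKB1 WT arrays. In the other arm it lay at 7.33, 7.73 and 7.64 in RbpJk KO livers, against 7.43, 7.40 and 7.54 in RbpJk WT livers. All values are log2 intensities, on which a difference of 1 is a doubling, and Stk11 was lower on every knockout array of its own arm only. Rbpj lay at 4.61, 4.48 and 3.92 in RbpJk KO livers, against 4.84, 5.05 and 5.31 in RbpJk WT livers. It lay between 4.81 and 4.91 in LKB1 KO livers, against a range of 4.55 to 4.92 in LKB1 WT livers. In its own arm the change was -0.80 for Stk11 (adjusted p = 0.0224) and -0.73 for Rbpj (adjusted p = 0.0724), and neither gene belonged to the shared response. The change averaged over both arms, Cre-positive minus Cre-negative, was -0.34 ± 0.16 for Stk11 (SE; adjusted p = 0.405, exact permutation p = 0.095) and -0.32 ± 0.17 for Rbpj (adjusted p = 0.489, exact permutation p = 0.12). Probes that lie beyond a deleted exon cannot check its loss, and where the probes lie was not examined.

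A pair of features of the arrays bears on every result. Xist, which in female cells coats and silences 1 X chromosome, was high (10.63 to 10.75) on 1 of the 6 Cre-positive arrays, LKB1 KO 3, and on 5 of the 6 Cre-negative arrays, all but RbpJk WT 2. It was low (3.81 to 5.09) on the other arrays, on which the Y-linked gene Eif2s3y was high. The 6 Xist-high arrays thus went against their label of male, Xist class moved with Cre in both arms, and named calls that were lost with that class as a covariate are given as such. RbpJk WT 1 also had the pancreatic enzyme transcript Ctrb1 at 10.44, whereas the next highest array, RbpJk KO 2, was at 6.75. The hepatocyte marker list (8 genes measured of 10 listed) averaged between 11.57 and 11.75 on Cre-positive arrays and between 11.59 and 11.77 on Cre-negative arrays. Its 1 call was the regulator gene Hnf4a (0.41 ± 0.09, adjusted p = 0.0356), lost without LKB1 KO 2, LKB1 WT 3 or any RbpJk array (adjusted p of up to 0.0978) and with Xist class (0.359).

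Of 23185 genes tested, 214 (0.923%) were higher and 186 (0.802%) were lower in Cre-positive livers at a Benjamini-Hochberg adjusted p under 0.05. When each array was first centred on its median, the split was 336 higher against 166 lower. Changes were from 0.27 to 2.91 on the log2 scale among the 214 higher genes, 33 of which changed by over 2-fold. Among the 186 lower genes they were from 0.25 to 3.29 in size, with 41 over 2-fold. Of the calls, 117 of 214 and 122 of 186 were also made without each of the 12 arrays in turn.

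Whether the shared response held in each arm was asked in a model with a separate contrast for each. In the LKB1 arm 97 genes rose (0.418%) and 126 fell (0.543%), and in the RbpJk arm 259 rose (1.12%) and 131 fell (0.565%). Of the 214 shared rises, 29 were called in both arms, 35 in the LKB1 arm alone, 83 in the RbpJk arm alone and 67 in neither. Of the 186 shared falls, 42 were called in both arms, 45 in the LKB1 arm alone, 39 in the RbpJk arm alone and 60 in neither. A call in 1 arm alone does not show that the arms differed. The change had the same sign in both arms for all 400 shared calls, which a test of the average favours, and for 54.0% of all genes. Put the other way, the 29 genes called higher in both arms were 29.9% of the rises in LKB1 KO livers and 11.2% of those in RbpJk KO livers, and the 42 called lower were 33.3% and 32.1% of the falls.

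Separation of the arrays was also read without a model. The 3 KO arrays lay above the 3 WT arrays in both arms for 342 of 23185 genes (1.48%) and below them for 289 (1.25%). Of the shared calls this held for 165 of 214 rises and 157 of 186 falls, and it held for all 71 genes called in both arms in 1 direction. Passing the threshold in both arms favours such separation. By it LKB1 KO 3, the Xist-high knockout, lay beyond the 3 Xist-high LKB1 WT arrays in those genes. Likewise the 3 Xist-low RbpJk KO arrays lay beyond RbpJk WT 2, the Xist-low control. This is no separate check on Xist class, since it follows from the separation and rests on 1 array in each arm. For 29 genes called higher in both arms the median change was 0.90 in LKB1 KO livers and 0.92 in RbpJk KO livers. For 42 called lower it was -1.10 and -1.09. These genes were chosen for passing the same threshold in both arms, which favours alike sizes. Over the 97 rises of the LKB1 arm the median was 0.85 in LKB1 KO livers and 0.40 in RbpJk KO livers, and over the 259 rises of the RbpJk arm it was 0.19 and 0.82. Over all genes the changes of the arms had a Pearson's r of 0.24 and a Spearman's rho of 0.12. This is a description across genes, which are not independent replicates, and both arms carry the same imbalance of Xist class.

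**Figure D1:**
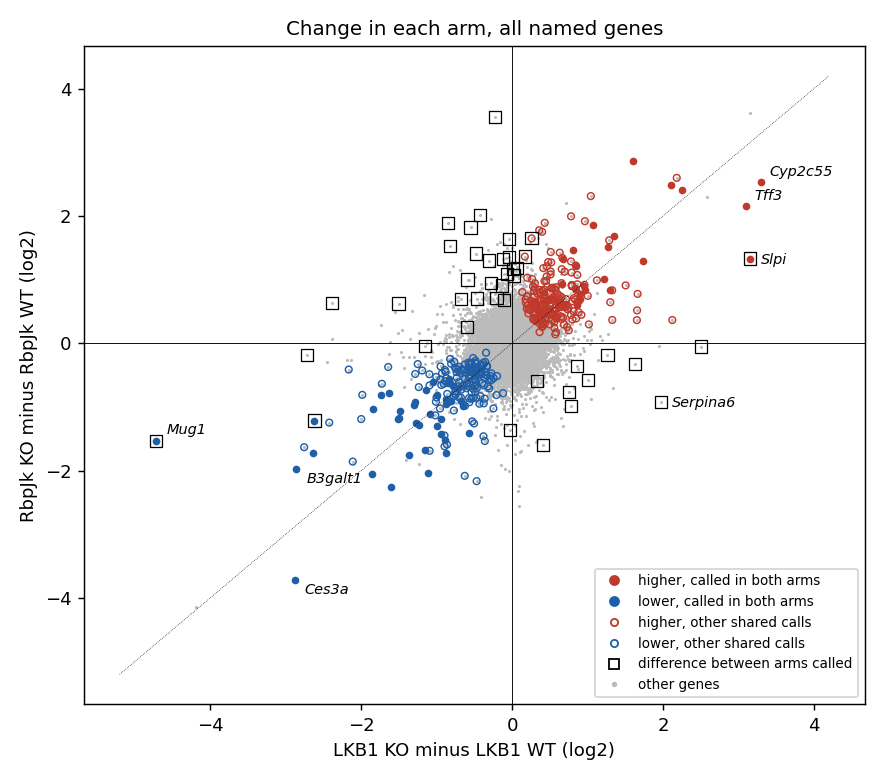
Each point is 1 of 23185 genes, with its change in LKB1 KO minus LKB1 WT livers on the x axis and in RbpJk KO minus RbpJk WT livers on the y axis (both log2); the dotted line marks equal change. Filled points are the 29 genes called higher (red) and the 42 called lower (blue) in both arms, open circles the other shared calls and squares the 42 genes whose change differed between the arms.

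With Xist class as a covariate, 57 genes were called higher and 58 lower. Of the 214 and 186 shared calls, 54 and 55 were called again, and all 400 kept their sign. The median standard error over all genes was 0.17 with the covariate and 0.12 without it, while the median change of the 214 rises was 0.64 with it and 0.61 without it. Among genes called in both arms, 27 of 29 rises and 37 of 42 falls were called with the covariate for their average change. The counts through all fits given below are likewise of the average change. With a contrast for each arm and the covariate, 18 genes were called higher and 21 lower in both arms. In a fit to 1 Xist class per arm (LKB1 KO 3 against the 3 LKB1 WT arrays, and the 3 RbpJk KO arrays against RbpJk WT 2), 49 rises and 43 falls were called. The changes in that fit equal those with the covariate, and its errors differ, so that it adds nothing on direction. The lone arrays in that fit are assumed to vary like the others. Through the 12 fits that each left out an array and both Xist settings, 22 of the 29 rises and 29 of the 42 falls were called every time. Of 943 genes on the X chromosome, 10 were among the 400 calls (1.06%), where over all genes 0.923% were called higher and 0.802% lower. Of 13 on the Y chromosome 1 was called, Uty, whose change was 2.39 without the covariate and 0.30 with it. The call of Uty, also the 1 call among 7 sex-linked genes, was lost without any array but LKB1 KO 3 or RbpJk WT 2 (adjusted p of up to 0.11).

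**Figure D2:**
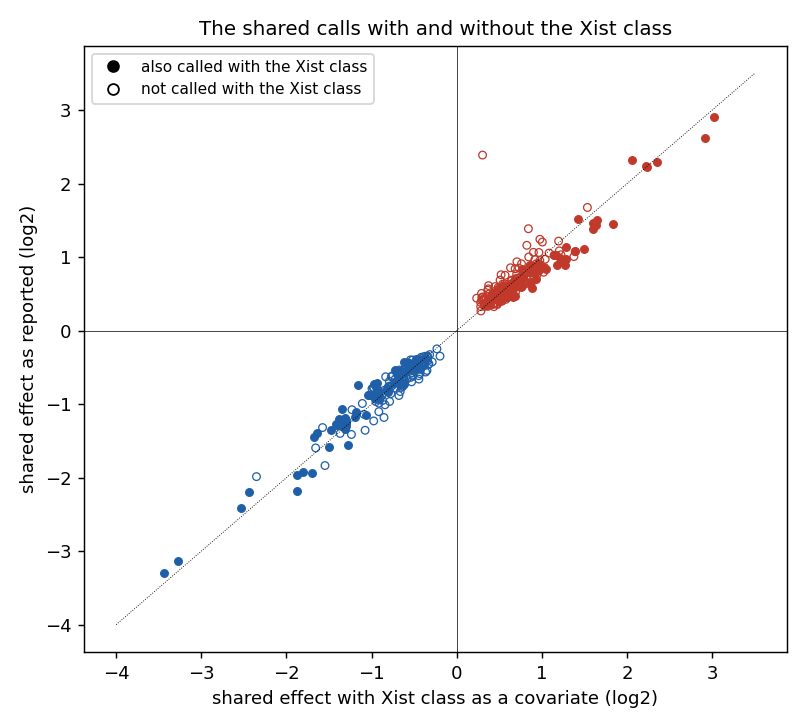
Each point is 1 of the 400 shared calls, with its change (Cre-positive minus Cre-negative, log2) in the fit with Xist class as a covariate on the x axis and as reported on the y axis; red points are rises, blue points falls, and the dotted line marks equality. Filled points, 54 rises and 55 falls, were called in both fits, and every point kept its sign.

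The greatest shared rise was that of Cyp2c55, a cytochrome P450 of the Cyp2c family. It lay at 6.65, 7.10 and 6.96 in LKB1 KO livers, against 3.50, 3.48 and 3.86 in LKB1 WT livers. In the other arm it lay at 5.76, 6.87 and 6.77 in RbpJk KO livers, against 4.06, 3.77 and 3.96 in RbpJk WT livers. The lowest Cre-positive array, RbpJk KO 1, was above the highest Cre-negative array, and the average change was 7.54-fold (2.91 ± 0.20, adjusted p = 6.21e-06). The exact permutation test over the 400 arrangements of Cre within the arms gave this gene a two-sided p = 0.005, the smallest it can give. The same p belongs to every gene that changed in the same direction in both arms without any overlap of KO and WT values within an arm. Such separation was required of the greatest rises and falls named here and below, so the choice of this gene fixed its p.

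Tff3, a trefoil peptide secreted by mucous epithelia, lay at 10.10, 10.64 and 10.30 in LKB1 KO livers, against 7.24, 7.36 and 7.14 in LKB1 WT livers. In RbpJk KO livers it lay at 10.41, 8.75 and 10.08, against 8.32, 6.96 and 7.48 in RbpJk WT livers. The ranges did not overlap, although RbpJk KO 2 and RbpJk WT 1 came within 1 unit of each other, and the change was 6.18-fold (2.63 ± 0.28, adjusted p = 0.000155). Timp1, an inhibitor of matrix metalloproteinases, lay at 5.27, 4.75 and 5.62 in LKB1 KO livers, against 3.36, 3.68 and 3.83 in LKB1 WT livers, and at 6.67, 6.07 and 6.37 in RbpJk KO livers, against 3.44, 3.91 and 3.17 in RbpJk WT livers. Its change was 4.69-fold (2.23 ± 0.24, adjusted p = 0.000145), with each arm called on its own. Tnfrsf12a, the receptor of the cytokine TWEAK, lay between 6.59 and 6.86 on all 6 Cre-positive arrays, against 4.73 to 5.68 on the 6 Cre-negative arrays (1.51 ± 0.11, adjusted p = 6.44e-06). Jun, a subunit of the transcription factor AP-1, lay at 6.72, 6.06 and 6.41 in LKB1 KO livers, against 4.77, 5.15 and 5.47 in LKB1 WT livers, and at 6.96, 7.42 and 7.18 in RbpJk KO livers, against 5.58, 5.27 and 6.18 in RbpJk WT livers (1.39 ± 0.17, adjusted p = 0.000415). Cdkn1a, the cell cycle inhibitor p21, lay between 8.22 and 9.60 on Cre-positive arrays, against 7.84 to 8.45 on Cre-negative arrays, without overlap within either arm. Its change of 0.90 ± 0.16 was called for the average (adjusted p = 0.00902) and with Xist class (adjusted p = 0.00823), and in neither arm alone (0.86 and 0.93, adjusted p = 0.144 and 0.071).

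Of the 15 greatest rises chosen by rule, 10 were called in both arms, and 12 with Xist class as a covariate. The others by size were Gstm3 (2.32), Scd1 (2.29), Slpi (2.24), Cyp2c29 (1.68), the calcium channel subunit gene Cacna1b (1.52), Scd2 (1.46), the aldehyde dehydrogenase gene Aldh1a7 (1.45), Cidec (1.44), the cytochrome c oxidase subunit gene Cox7a1 (1.22) and the somatostatin receptor gene Sstr2 (1.21). Cyp2c29, Cox7a1 and Sstr2 were not called with Xist class, at adjusted p of 0.402, 0.149 and 0.111. Cyp2c29 (adjusted p = 0.0399) also lost its call without LKB1 WT 1, LKB1 WT 3, LKB1 KO 2, LKB1 KO 3, RbpJk WT 1, RbpJk WT 3 or RbpJk KO 3, with an adjusted p of up to 0.0986.

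**Figure D3:**
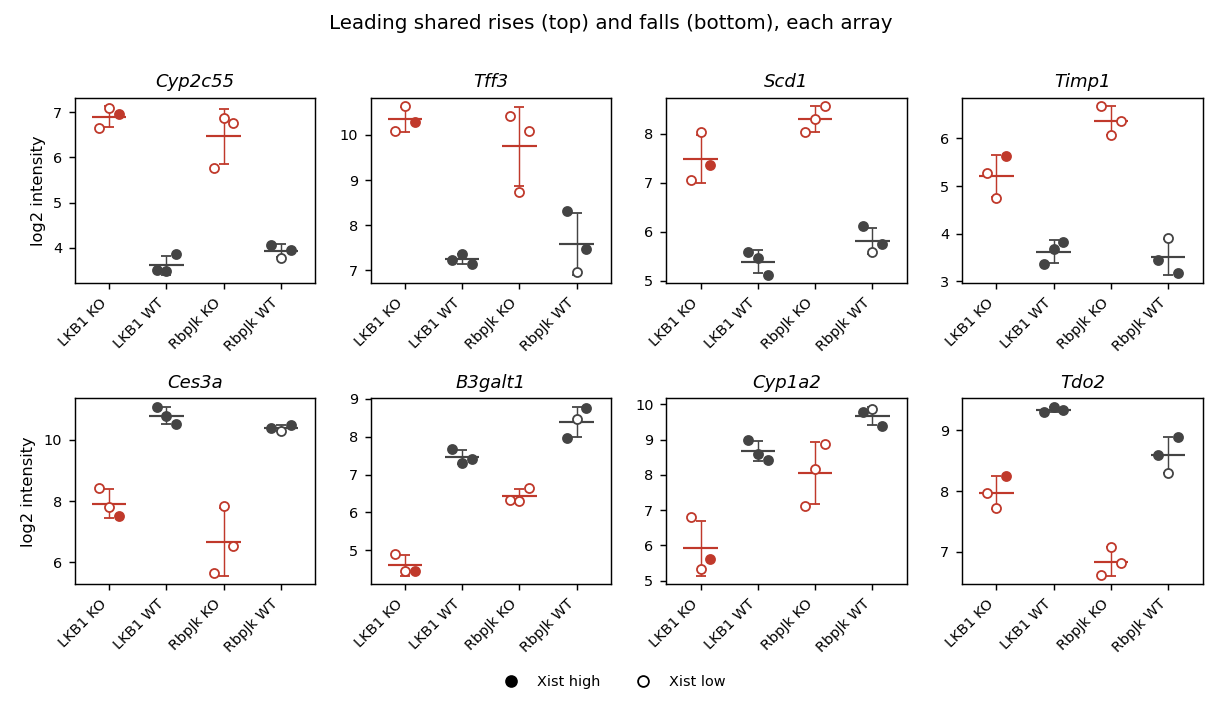
Log2 intensity on each array for 4 leading shared rises (top) and 4 leading falls (bottom), with the 2 arms side by side and KO left of WT in each; horizontal lines are group means and bars are SD (n = 3). Filled points are Xist-high and open points Xist-low arrays. In all 8 genes the KO and WT arrays of an arm do not overlap, which the rule that chose them required.

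The greatest shared fall was that of Ces3a, a liver carboxylesterase. It lay at 8.43, 7.81 and 7.52 in LKB1 KO livers, against 11.08, 10.77 and 10.53 in LKB1 WT livers. In RbpJk KO livers it lay at 5.63, 7.83 and 6.53, against 10.39, 10.28 and 10.47 in RbpJk WT livers. No Cre-positive array came within 1 unit of a Cre-negative one, and the gene was 9.81-fold lower (-3.29 ± 0.29, adjusted p = 4.12e-05).

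B3galt1, a galactosyltransferase, lay at 4.91, 4.44 and 4.45 in LKB1 KO livers, against 7.68, 7.31 and 7.40 in LKB1 WT livers, and at 6.32, 6.31 and 6.64 in RbpJk KO livers, against 7.97, 8.47 and 8.75 in RbpJk WT livers (-2.42 ± 0.18, adjusted p = 6.44e-06). Cyp1a2, a cytochrome P450 of pericentral hepatocytes, lay at 6.81, 5.34 and 5.62 in LKB1 KO livers, against 9.0, 8.60 and 8.43 in LKB1 WT livers, and at 7.11, 8.16 and 8.87 in RbpJk KO livers, against 9.77, 9.87 and 9.40 in RbpJk WT livers. Its arrays were more scattered in RbpJk KO livers, where the fall was not called alone (-1.63, adjusted p = 0.0542), and its average change was -2.19 ± 0.31 (adjusted p = 0.00122). Tdo2, the first enzyme of tryptophan breakdown in the liver, lay at 7.97, 7.72 and 8.25 in LKB1 KO livers, against 9.30, 9.39 and 9.34 in LKB1 WT livers, and at 6.62, 7.08 and 6.82 in RbpJk KO livers, against 8.60, 8.29 and 8.88 in RbpJk WT livers (-1.56 ± 0.12, adjusted p = 1.28e-05). Dio1, the deiodinase that forms active thyroid hormone in the liver, lay between 5.14 and 6.85 on Cre-positive arrays, against 6.67 to 7.87 on Cre-negative arrays, with no overlap within an arm (-1.34 ± 0.15, adjusted p = 0.000256). Inmt, an indolethylamine methyltransferase, also fell in both arms (-1.85 and -1.03, average -1.44 ± 0.17, adjusted p = 0.000257).

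Of the 15 greatest falls, 11 were called in both arms and 12 with Xist class as a covariate. The others by size were Mug1 (-3.13), the lectin gene Clec2h (-1.99), Ces1f (-1.96), Sult1c2 (-1.94), Cyp2c69 (-1.92), Cyp3a44 (-1.41), Pcp4l1 (-1.40), Nat8f2 (-1.39) and Cyp2a22 (-1.35). Clec2h, Cyp3a44 and Pcp4l1 were not called with Xist class, at adjusted p of 0.0719, 0.062 and 0.0719. Probes for members of a family as close as the Cyp2c or Cyp3a genes can share signal.

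Since 1 arm removed the protein that binds it, the RBPJ site was searched for (TGGGAA on either strand, counted apart from any other motif) in RefSeq promoter windows of build GRCm38.p6, from 250 bases before to 50 bases after a gene start. It was held by 3 of the 21 genes called higher in both arms that have a window (14.3%) and by 8 of the 28 called lower in both arms (28.6%), whereas 27.2% of 15792 protein-coding genes hold it. Over all shared calls the shares were 28.1% of 167 higher and 29.6% of 142 lower genes. The stretches below, each 30 bases on the strand of the gene with the site or its reverse complement in capitals, are from the 3 such rises and from the 3 greatest such falls named by the rule.
Timp1, chrX:20869996-20870025, plus strand: gtttggggaataTGGGAAacctgagaggca
Jun, chr4:95052266-95052295, minus strand: gacgcaagccaaTGGGAAagcctcggggtg
Nsdhl, chrX:72918365-72918394, plus strand: gcctcagcggcgTTCCCActgctccacgcg
Tdo2, chr3:81975738-81975767, minus strand: cactaaagtatcTGGGAAggttgataccat
Inmt, chr6:55175028-55175057, minus strand: taaaaggcatggTGGGAAggagtgagcatt
Cyp3a44, chr5:145805892-145805921, minus strand: gtgccacccatcTTCCCAgcatataagtac
Of the other motifs searched, the sterol regulatory element (TCACNCCAC) was held by 1.2% of the 167 higher genes, by 0 of the 142 lower genes, by 1 of 14 cholesterol synthesis genes and by 0 of the 6 of these that rose, whereas 1.42% of protein-coding genes hold it. The cAMP response element (TGACGTCA) was held by 2.99% of the higher and 0 of the lower genes, against 2.63% of protein-coding genes. The E-box (CACGTG) was held by 7.19% of the higher and 7.75% of the lower genes, against 9.39%. A match is a description of the letters and not a binding site, and a gene without one may be bound elsewhere. All 6 genes were taken from those called in both arms, so that their change in both was set by the choice. The part of the site in these changes was not tested.

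Genes of lipid synthesis were the widest group of rises. Of 17 cholesterol synthesis genes measured, 7 rose and 0 fell, with a median change of 0.65, against -0.02 over all 23185 genes. Beside this and the list counts below, 0.923% of all genes were called higher and 0.802% lower. With Xist class 4 of these rises were called. All 17 had a positive average change, and 15 a positive change in both arms. The list's calls were 2 in LKB1 KO livers and 13 in RbpJk KO livers, with median changes of 0.21 and 0.86, and the difference between the arms was called for 1 of the 17, Msmo1. Dhcr7, which makes cholesterol in the last step of the pathway, lay at 8.55, 8.60 and 8.70 in LKB1 KO livers, against 7.82, 7.87 and 7.60 in LKB1 WT livers. It lay at 9.16, 9.40 and 9.22 in RbpJk KO livers, against 8.34, 8.28 and 8.63 in RbpJk WT livers, so that the change was 0.85 in the LKB1 arm and 0.84 in the RbpJk arm (average 0.85 ± 0.08, adjusted p = 5.33e-05). Nsdhl, a sterol dehydrogenase, changed by 0.67 and 1.32 (average 0.995 ± 0.12, adjusted p = 0.000546). The epoxidase gene Sqle rose by 0.82 ± 0.12 (adjusted p = 0.0016) and the demethylase gene Cyp51 by 0.84 ± 0.15 (adjusted p = 0.00721), both called in the RbpJk arm alone. Of 9 genes of sterol uptake and its regulators, 1 was called. It was Srebf2, which encodes the transcription factor that drives cholesterol synthesis, and it rose by 0.47 ± 0.08 (adjusted p = 0.00699), and not with Xist class (adjusted p = 0.0857).

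Of 19 genes of fatty acid synthesis and desaturation, 7 rose and 0 fell (median 0.29), with 5 calls in LKB1 KO livers and 6 in RbpJk KO livers. Scd1, the desaturase that introduces the double bond of oleate, lay at 7.06, 8.03 and 7.37 in LKB1 KO livers, against 5.58, 5.47 and 5.11 in LKB1 WT livers, and at 8.03, 8.31 and 8.56 in RbpJk KO livers, against 6.11, 5.59 and 5.74 in RbpJk WT livers. It was 4.90-fold higher on average (2.29 ± 0.16, adjusted p = 6.44e-06). Its relative Scd2 changed by 1.08 in LKB1 KO and 1.85 in RbpJk KO livers (average adjusted p = 4.78e-05), and the elongase gene Elovl6 by 1.22 and 1.01 (average 1.12 ± 0.15, adjusted p = 0.000694). Fasn, the fatty acid synthase, changed by 0.40 and 0.82 (average 0.61 ± 0.09, adjusted p = 0.00164), called in the RbpJk arm alone. All 4 were also called with Xist class as a covariate.

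Of 13 lipid droplet genes, 5 rose and 0 fell (median 0.39), and 0 were called in both arms. With Xist class 2 of these rises were called, Cidec and Hilpda. The call of Pnpla2 was lost without LKB1 KO 2 or RbpJk KO 3 (adjusted p of up to 0.0596). That of G0s2 was lost in 10 of the 12 fits that each left out an array (adjusted p of up to 0.1). Cidec, which enlarges lipid droplets, lay at 5.73, 6.18 and 6.11 in LKB1 KO livers, against 4.95, 5.37 and 4.80 in LKB1 WT livers, and at 6.67, 7.06 and 7.47 in RbpJk KO livers, against 5.30, 4.86 and 5.29 in RbpJk WT livers (1.44 ± 0.19, adjusted p = 0.00085). Hilpda, an inhibitor of lipolysis, rose by 0.60 ± 0.11 (adjusted p = 0.00799). Of 22 genes for the oxidation of fatty acids, with other targets of Ppara, 4 rose and 1 fell (median 0.11), and with Xist class 2 rises and 0 falls were called. The thioesterase gene Acot2 rose in both arms (0.97 and 0.83, average adjusted p = 0.000722), and Pdk4, a kinase that restrains pyruvate dehydrogenase, rose on average (0.89 ± 0.17, adjusted p = 0.00982) with an overlap of arrays in the LKB1 arm.

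**Figure D4:**
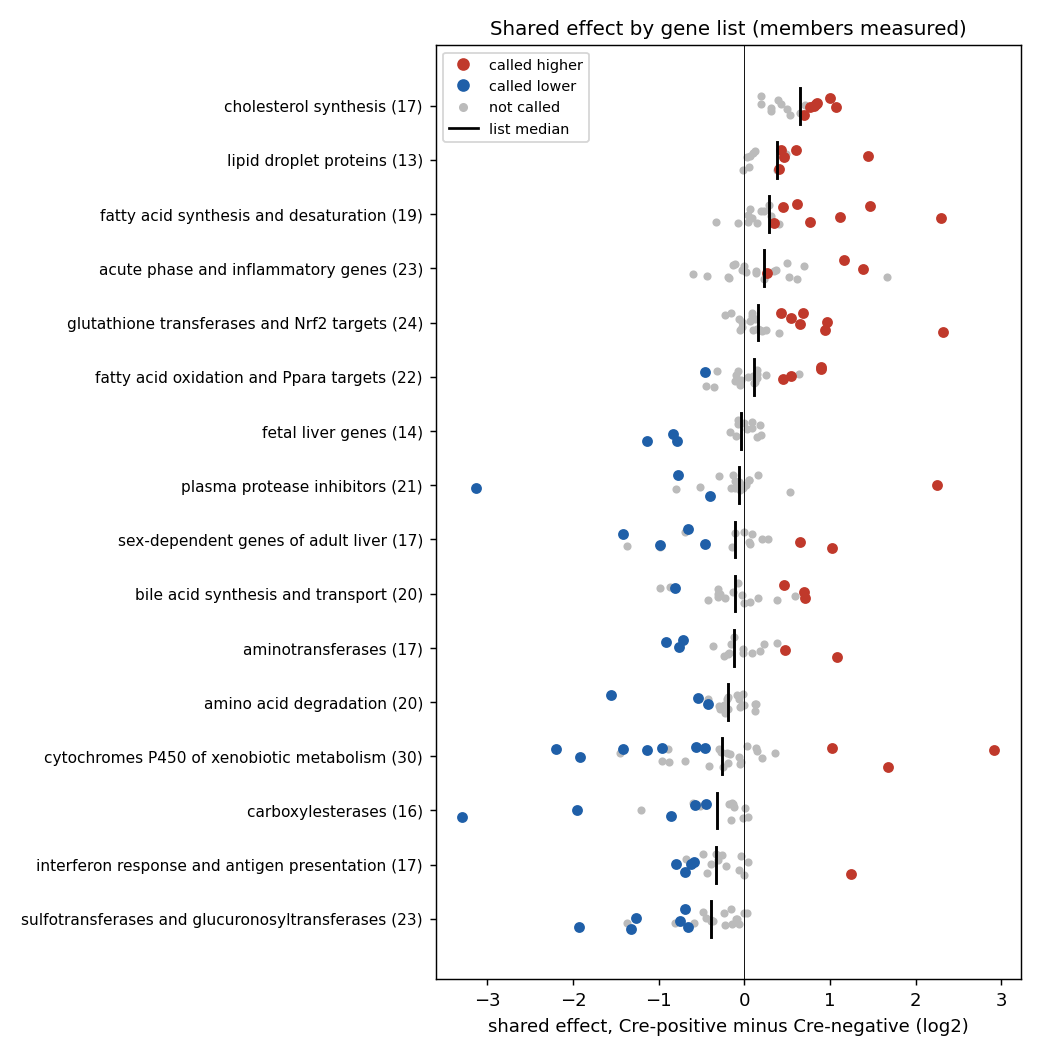
Average change of each member (Cre-positive minus Cre-negative, log2, x axis) for the 16 pathway lists with at least 3 shared calls, ordered by median, with the number of members measured in brackets. Red and blue points are members called higher and lower, grey points are not called and black bars are list medians, from 0.65 for cholesterol synthesis to -0.39 for sulfotransferases and glucuronosyltransferases.

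Genes for the metabolism of xenobiotics were among the large falls. Of 23 sulfotransferases and glucuronosyltransferases, which attach sulfate or glucuronic acid to hormones and drugs, 0 rose and 6 fell (median -0.39), and 18 had a negative change in both arms. With Xist class 2 of these falls were called. Sult1c2 lay at 4.40, 4.39 and 4.88 in LKB1 KO livers, against 6.55, 6.18 and 5.75 in LKB1 WT livers, and at 4.72, 5.12 and 5.40 in RbpJk KO livers, against 7.33, 7.19 and 7.51 in RbpJk WT livers (-1.94 ± 0.17, adjusted p = 4.18e-05). Sult2a8 fell by nearly the same amount in each arm (-1.27 and -1.25, average adjusted p = 0.000102). Of 16 carboxylesterases, 0 rose and 5 fell (median -0.31), among them Ces1f (-1.86 and -2.06) and Ces1d (-0.81 and -0.90), both called in each arm, Ces1d not with Xist class (adjusted p = 0.0578). With that class 2 falls of the carboxylesterase list were called. Of 30 cytochromes P450, 3 rose and 7 fell on average (median -0.26), so that Cyp2c55 ran against the greater part of its list. With Xist class, 1 rise and 3 falls of the P450 list were called. In LKB1 KO livers 1 member was called higher and 9 lower (median -0.36). In RbpJk KO livers 4 were called higher and 4 lower (median -0.14). The change was negative in both arms for 16 of the 30, and the difference between the arms was called for 3.

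Of 24 glutathione transferases and targets of the antioxidant factor Nrf2, 7 rose and 0 fell (median 0.16). Gstm3, a glutathione transferase, lay at 7.52, 7.72 and 7.20 in LKB1 KO livers, against 5.82, 5.06 and 4.82 in LKB1 WT livers, and at 6.65, 7.93 and 8.45 in RbpJk KO livers, against 5.50, 5.52 and 4.80 in RbpJk WT livers (2.32 ± 0.26, adjusted p = 0.00021). Gstp1 was bright and tight, from 11.37 to 11.41 in LKB1 KO livers, against 10.56 to 10.87 in LKB1 WT livers, and from 11.86 to 11.92 in RbpJk KO livers, against 11.16 to 11.32 in RbpJk WT livers (0.65 ± 0.06, adjusted p = 4.18e-05). Ugdh, which makes UDP-glucuronic acid, rose by 0.97 ± 0.14 (adjusted p = 0.00119), and Srxn1, which repairs oxidised peroxiredoxins, by 0.94 ± 0.16 (adjusted p = 0.00442). Of the 7 calls, 2 were made with Xist class, and adjusted p was 0.0671 for Ugdh and 0.238 for Srxn1. The antioxidant response element (TGACNNNGC on either strand) stood in a promoter window of 7 of the 19 list genes that have one (36.8%), whereas 15.1% of protein-coding genes hold it. It was also held by 21.0% of the 167 shared rises and 21.8% of the 142 shared falls that have a window, and by 28.6% of 14 cholesterol synthesis genes. Among genes called in both arms it was held by 9.52% of 21 higher and 21.4% of 28 lower genes. Targets of Nrf2 were picked for this list, so its share is no result about the shared response.

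Among 20 genes that make or carry bile acids, 3 rose and 1 fell (median -0.11). Abcb11, the pump that exports bile salts, rose by 0.69 ± 0.10 (adjusted p = 0.00164) and Baat, which conjugates bile acids, by 0.71 ± 0.13 (adjusted p = 0.00938), both also called with Xist class. The other rise, Abcb4, was not called with Xist class and was lost in 9 of the 12 fits that each left out an array (adjusted p of up to 0.0978). Slco1b2, an uptake transporter, fell by 0.81 on the log2 scale (adjusted p = 0.00424), and not with Xist class (adjusted p = 0.0922). Of 21 plasma protease inhibitors, 1 rose and 3 fell (median -0.06), with 1 rise and 1 fall called with Xist class. The falls included Itih1 (-0.40 ± 0.06, adjusted p = 0.00287, and 0.074 with Xist class).

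Amino acid metabolism moved in both directions. Of 17 aminotransferases, 2 rose and 3 fell, and with Xist class 2 rises and 1 fall were called. Agxt, which converts glyoxylate to glycine, lay at 9.64, 8.91 and 9.27 in LKB1 KO livers, against 10.33, 10.12 and 10.22 in LKB1 WT livers, and at 9.70, 9.11 and 9.38 in RbpJk KO livers, against 10.10, 9.71 and 10.07 in RbpJk WT livers. Its ranges met most closely in the RbpJk arm, at 9.70 in RbpJk KO 1 against 9.71 in RbpJk WT 2. The average change was -0.76 ± 0.13 (adjusted p = 0.00609), called in the LKB1 arm alone (-0.95, adjusted p = 0.0193) and not with Xist class (-0.63, adjusted p = 0.234). Kyat1, a kynurenine aminotransferase, fell in both arms (-1.0 and -0.82, average adjusted p = 5.49e-05), whereas the alanine aminotransferase gene Gpt2 rose on average (1.08 ± 0.20, adjusted p = 0.00902) with an overlap of arrays in the RbpJk arm. Of 20 genes of amino acid degradation, 0 rose and 3 fell, and Tdo2 was the 1 called with Xist class. Nags, whose product activates the urea cycle's first enzyme, was the 1 call among 8 urea cycle genes and rose in both arms (0.51 and 0.72, average adjusted p = 0.000335).

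The pathways of the deleted genes and of glucose output gave no shared call, where over all genes 0.923% were higher and 0.802% were lower. At those shares, lists as short as these can hold 0 calls whatever their genes do. Of 24 genes of the Lkb1 complex and the AMPK family, 0 were called (median 0.09), with the scaffold gene Cab39 at 0.39 ± 0.12 (adjusted p = 0.153) and the kinase gene Sik1 at 0.41 ± 0.13 (adjusted p = 0.177). Of 19 Notch pathway genes 0 were called (median -0.05), with Notch2 at 0.26 ± 0.09 (adjusted p = 0.232). Of 12 genes of gluconeogenesis 0 were called, with G6pc, the last enzyme of the pathway, at 0.18 ± 0.09 (adjusted p = 0.46). The same was true of 20 proliferation genes. Of 12 genes of glycogen metabolism, the 1 call was Ppp1r3c, a glycogen-targeting phosphatase subunit (-0.36 in LKB1 KO, -1.54 in RbpJk KO, average adjusted p = 0.0299), lost without LKB1 WT 1, LKB1 KO 2 or any RbpJk array (adjusted p of up to 0.0791) and with Xist class (0.354). Of 20 p53 targets Cdkn1a was the 1 call (median 0.02), and of 16 genes of the endoplasmic reticulum and integrated stress response Atf3 was (0.80 ± 0.16, adjusted p = 0.0143; with Xist class 0.164).

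Of 17 genes of the interferon response and antigen presentation, 4 fell and 1 rose (median -0.33), and 0 were called with Xist class. The rise, named after its values were seen, was that of Ubd (1.24 ± 0.29, adjusted p = 0.0399). The falls were those of Usp18 (-0.59, adjusted p = 0.0309), Oas2 (-0.80, adjusted p = 0.0345), Irf7 (-0.69, adjusted p = 0.0377) and Isg15 (-0.63, adjusted p = 0.0399). Leaving out any 1 of the 12 arrays ended the call of at least 1 of these 4 genes, with an adjusted p of up to 0.1 for Isg15. Of 23 acute phase and inflammatory genes, 3 rose on average (median 0.23), but the arms went apart. In LKB1 KO livers 1 was called higher and 3 lower (median -0.19). In RbpJk KO livers 7 were called higher and 0 lower (median 0.35). The difference between the arms was called for 5 of the 23. Hpx, which binds heme in plasma, changed by 0.27 ± 0.06 (adjusted p = 0.0221), and its call was lost without any LKB1 WT array, LKB1 KO 1, LKB1 KO 2 or RbpJk KO 3 (adjusted p of up to 0.0648) and with Xist class (0.226). The other shared rises of this list were the chemokine genes Cxcl10 (0.78 in LKB1 KO, 1.99 in RbpJk KO, average adjusted p = 0.0279) and Ccl2 (0.43 and 1.89, average adjusted p = 0.0274). Their arrays overlapped in the LKB1 arm, and the calls were lost with Xist class (adjusted p = 0.547 and 0.485). Both were also lost without LKB1 WT 1, RbpJk WT 1, RbpJk WT 3 or any RbpJk KO array, Cxcl10 also without LKB1 KO 1 or LKB1 WT 2, and Ccl2 also without LKB1 KO 2 or RbpJk WT 2 (adjusted p of up to 0.0671 and 0.0744).

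Lists of markers for the other cells of the newborn liver were read beside these groups. Over all genes 0.923% were called higher and 0.802% lower, and a single call in a list does not describe its cell type. Of 10 cholangiocyte markers, 5 with a positive average change, 1 was called higher, Bicc1 (0.49 ± 0.10, adjusted p = 0.0154). Of 12 Kupffer cell and macrophage markers, 4 with a positive average change, 1 was called lower, Adgre1 (-0.43 ± 0.07, adjusted p = 0.00512). The median of the Kupffer cell list was -0.38 in LKB1 KO livers, with 0 calls, and 0.13 in RbpJk KO livers, with 2 calls higher and 1 lower. Medians were likewise -0.30 and 0.20 for endothelial and -0.28 and 0.18 for neutrophil markers. For cholangiocyte markers they were 0.20 and -0.18. Of 13 stellate cell and fibroblast markers 1 rose, Timp1, and 2 fell, the retinol acyltransferase gene Lrat (-0.44 ± 0.09, adjusted p = 0.0142) and Reln (-0.43 ± 0.08, adjusted p = 0.0143). That list averaged 6.71 to 6.81 in LKB1 KO livers, against 6.38 to 6.69 in LKB1 WT livers, and 6.86 to 7.52 in RbpJk KO livers, against 6.62 to 7.15 in RbpJk WT livers. Of 7 B cell markers all had a negative change in both arms (median -0.49) and 1 was called, Igll1 of the pre-B cell receptor (-0.92 ± 0.17, adjusted p = 0.0106). The B cell list averaged 4.51 to 5.05 in LKB1 KO livers, against 5.00 to 5.25 in LKB1 WT livers, and 4.65 to 5.00 in RbpJk KO livers, against 5.20 to 5.67 in RbpJk WT livers. Of 13 endothelial, 10 neutrophil, 7 erythroid, 6 megakaryocyte and 10 pancreatic acinar markers 0 were called. The acinar list averaged 4.08 to 4.60 on Cre-positive arrays and 4.12 to 7.46 on Cre-negative arrays, the highest being RbpJk WT 1. Timp1 was the 1 member of these lists called with Xist class. The part of these cells in the shared response was not tested.

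Of 17 genes that differ between the sexes in the adult liver, 2 rose and 4 fell (median -0.10, and -0.02 with Xist class). With Xist class 1 rise was called, Gstp1. Hao2, a hydroxy acid oxidase, fell in both arms (-0.57 and -1.40, average adjusted p = 0.000927), and not with Xist class (adjusted p = 0.0646). Of 14 fetal liver genes 3 fell, namely Cyp3a16 (-1.14 ± 0.15, adjusted p = 0.000859), the growth inhibitor gene Cdkn1c (-0.83 ± 0.13, adjusted p = 0.00366) and Gpc3, a surface proteoglycan (-0.79 ± 0.12, adjusted p = 0.00316), and 0 were called with Xist class. Meg3, an imprinted long non-coding RNA, was called for the average (-0.66 ± 0.11, adjusted p = 0.00632), in neither arm alone and not with Xist class (adjusted p = 0.312).

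The change differed between the arms for 42 genes (0.181%), of which 5 were also shared calls. In 31 of the 42 the changes had opposite signs, some with hardly a change in 1 arm, and 2 were called in both arms. Slpi, a secreted inhibitor of serine proteases, lay at 10.34, 10.50 and 10.55 in LKB1 KO livers, against 7.41, 7.54 and 6.97 in LKB1 WT livers, and at 8.32, 8.01 and 8.11 in RbpJk KO livers, against 6.90, 6.94 and 6.60 in RbpJk WT livers. It rose in both arms, by 3.16 and 1.33, and the difference of 1.83 was called (adjusted p = 0.00381). Mug1, a plasma protease inhibitor of the alpha-2-macroglobulin family, lay at 4.0, 3.76 and 3.33 in LKB1 KO livers, against 8.39, 9.04 and 7.83 in LKB1 WT livers, and at 6.92, 6.94 and 7.02 in RbpJk KO livers, against 8.14, 8.42 and 8.94 in RbpJk WT livers. Its falls of -4.72 and -1.54 differed by -3.18 (adjusted p = 0.00381), and those of Cyp2c69, of -2.62 and -1.21, by -1.41 (adjusted p = 0.0298).

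The other 2 shared calls that differed moved in the RbpJk arm. Eid3 changed by 0.26 in LKB1 KO and 1.65 in RbpJk KO livers, and its average call (adjusted p = 0.0253) was lost without any 1 of the 6 RbpJk arrays (up to 0.0728) and with Xist class (0.257). Msmo1, a sterol oxidase of cholesterol synthesis, changed by 0.17 and 1.36, and its average call (adjusted p = 0.044) was lost without LKB1 WT 1, LKB1 KO 3 or any 1 of the 6 RbpJk arrays (up to 0.113) and with Xist class (0.173). For these 2 genes the average does not describe the LKB1 arm. A further 2 genes were called in opposite directions in the arms and are no part of the shared response. Serpina6, the corticosteroid-binding globulin, lay at 10.65, 10.50 and 10.50 in LKB1 KO livers, against 8.91, 8.35 and 8.48 in LKB1 WT livers, and at 7.56, 7.92 and 7.91 in RbpJk KO livers, against 8.80, 9.0 and 8.35 in RbpJk WT livers, with changes of 1.97 and -0.92. Pramel27, which was dim on every array, changed by 0.75 and -0.77.

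**Figure D5:**
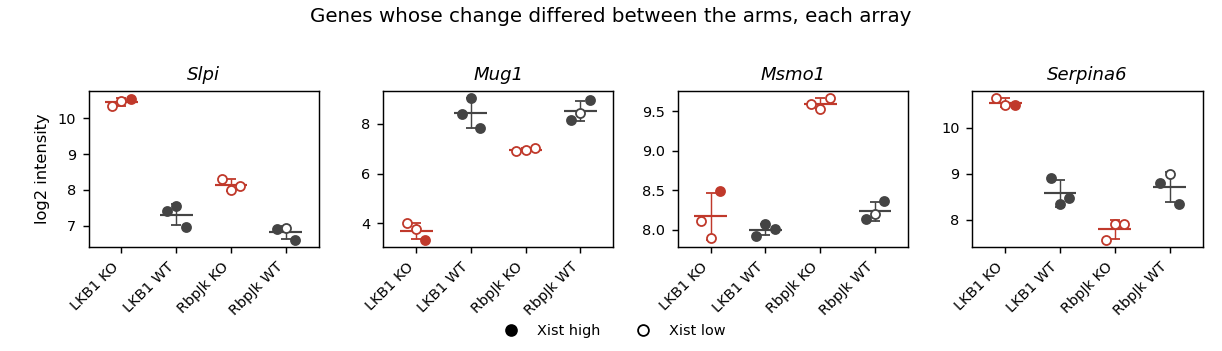
Log2 intensity on each array for 4 genes whose change differed between the arms, with KO left of WT in each arm; horizontal lines are group means, bars are SD (n = 3), and filled points are Xist-high arrays. Slpi and Mug1 changed the same way in both arms by different amounts, Msmo1 separated in the RbpJk arm, and Serpina6 moved in opposite directions.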

How the data were processed

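Livers of 12 mice, 4 groups of 3 taken from the labels, were each profiled on 1 Affymetrix whole-transcript array. Replicates were numbered by order of entry, so no arrays were paired. The authors deposited log2 intensities with 1 value for each probe set and array. The submitters' processing notes name Partek, and the sources used here do not state the background correction, normalization or genome build. Values ran from 1.18 to 12.97 and array medians from 4.84 to 5.01. Of 25206 probe sets, 2021 without a gene symbol were not tested.

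The shared effect was fitted in limma 3.58.1 (R 4.3.3) with arm and Cre as terms and an intensity trend (9 residual, 5.73 prior degrees of freedom). Arm effects and their difference came from a group-means model on the same 12 arrays. Adjusted p are Benjamini-Hochberg values over 23185 genes, from limma throughout, with a threshold of 0.05. Xist class was split at a log2 level of 8.

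The 25 pathway and 11 marker lists (543 of 584 genes measured) come from textbook knowledge. Members, lists and rules were chosen with earlier results of these data known. Named genes were Stk11, Rbpj and Agxt; the 15 greatest changes in each direction among calls whose KO and WT arrays did not overlap in either arm, leaving out unnamed models; up to 4 called members of each list, or 2 as values; genes opposite in the arms; up to 5 each way that differed between arms; and 5 each way called in neither arm alone. Promoter windows were also searched for TCACNCCAC, TGACGTCA and CACGTG.

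On simulated arrays with 23185 genes, the shared-effect fit recovered 50%, 88%, 94% and 98% of genes changed by 0.5, 1, 1.5 and 2, with 10 calls among unchanged genes. Alternatives were other variance models, scalings and filters, the arm and Xist terms, the t-test of the study's methods, and omission of single arrays.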

Additional observations from a re-analysis of the deposited data

Results flagged for a closer look

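In 8 of 234 sets of 6 arrays with the same Cre status, the highest or lowest value of a named gene stood apart from the other 5, and chance flags about 1 in 20 such sets. Among Cre-positive arrays, Cyp2c55 was low on RbpJk KO 1 (5.76, others 6.65 to 7.10) and Tff3 was low on RbpJk KO 2 (8.75, others 10.08 to 10.64). Inmt was high on LKB1 KO 1 (8.61, others 7.83 to 8.12), and Kyat1 was high on RbpJk KO 3 (7.09, others 6.63 to 6.79). These 4 arrays stayed beyond the Cre-negative arrays of their arm. Among Cre-negative arrays, Ppbp, a platelet chemokine gene, was high on LKB1 WT 3 (9.69, others 9.27 to 9.41), and Hsd17b2, a steroid dehydrogenase gene, was low on RbpJk WT 1 (9.53, others 9.74 to 9.84). The same array was high for the pancreatic elastase genes Cela1 (5.80, others 4.61 to 5.01) and Cela3b (6.97, others 3.28 to 3.92).

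In 7 named genes the change in LKB1 KO livers differed from that in RbpJk KO livers by the limma test of the difference. The change was greater in the LKB1 arm for Serpina6 by 2.89 (adjusted p = 0.000228), Slpi by 1.83 and Pramel27 by 1.52. LKB1 minus RbpJk was -3.18 for Mug1, -1.41 for Cyp2c69, -1.39 for Eid3 and -1.19 for Msmo1.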

How the results depend on the processing

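Every shared call kept its direction in each limma setting that tested it (all 400, or 365 with dim genes left out). Without the arm term, 109 genes were called higher and 96 lower. After median centring 336 were higher, the median change over all genes being 0.02 there and -0.02 as deposited. With Xist class as a covariate there were 57 higher and 58 lower, and 18 higher and 21 lower in both arms. In the fit to 1 Xist class per arm, which has fewer arrays, there were 49 higher and 43 lower, 7 higher and 4 lower in both arms, and 3 that differed between arms. The methods' t-test on 6 against 6 arrays without arm called 1138 higher and 1212 lower unadjusted, and 27 and 29 after Benjamini-Hochberg. Without each array in turn, 137 to 189 genes were higher and 140 to 206 lower, 18 to 32 higher and 24 to 46 lower in both arms, and 15 to 57 differed between arms. The low of 137 was without RbpJk KO 3, as was the 15; the lows of 18 and 24 were without LKB1 KO 3. Falls in both arms also numbered 26 without LKB1 WT 1 and 27 without LKB1 WT 3, and differences 20 without LKB1 WT 3, 22 without LKB1 WT 2 and 26 without LKB1 KO 3. The cause was not tested. The counts were within 1.5 times under the other settings, among them, chosen after seeing the data, separate fits of each arm (20 higher and 30 lower in both). No paired analysis was possible because replicate numbers come from the order of entries. Of 97 named shared calls, 27 held in every limma setting. Without detection calls, dim genes such as Rbpj have changes of unknown compression.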
